A study of Mus musculus with 33 samples.

Results

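Nutlins are small molecules that occupy the p53-binding pocket of Mdm2, the ubiquitin ligase that keeps the transcription factor p53 low by marking it for degradation. They come as mirror-image forms of a single structure, of which the (-) form fits the pocket and the (+) form binds it only weakly, so (+)-Nutlin serves as an inactive control compound. Freed p53 accumulates and binds its response elements, which lie near genes of cell cycle arrest, apoptosis and DNA repair and near Mdm2 itself. In B cell lymphomas without Arf, an inhibitor of Mdm2, wild-type p53 is held in check by Mdm2, and blocking Mdm2 is a way to activate it. The comparison of (+)-Nutlin with its solvent DMSO asks whether the control compound changes p53 binding.

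The comparison comprised 6 of the 26 peak lists from p53 chromatin immunoprecipitation and sequencing (ChIP-seq), chosen by their titles as the (+)-Nutlin and the DMSO lists of tumours 5, 6 and 7. The (+)-Nutlin cells received 5 µM of the compound for 3 h and the DMSO cells 0.5 µl of DMSO per ml for 3 h. All 6 lists came from lymph node B cell lymphomas of C57/Bl6 mice that carry the Eµ-myc transgene, in which an immunoglobulin enhancer drives Myc in B cells, and have the genotype Arf-/- Trp53+/+. Other lists of the same tumours served for orientation, namely 5 µM (-)-Nutlin, 1 µM doxorubicin (a DNA-damaging drug) and water at 1 µl per ml, each for 3 h, and untreated cells. The 8 lists of KI tumours, with Trp53 KI/delta and given OHT or ethanol (EtOH), entered only as a record of where else a region was called. Their treatments lasted 2 h and not 3 h. Nodes were pressed to single cells and not purified further, so other cells of the node may be included, and peak positions give no means to check the cell type. The titles set a tumour number on each list, and nothing states whether the cells of a tumour were treated in separate cultures, so p-values measure the spread between these lists. Each list holds the position and width of its peaks and no height or score. Read depth is unknown, and a list can be longer through stronger binding or through deeper or cleaner data.

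The numbers of p53 peaks with (+)-Nutlin and with DMSO lay in the same range. In tumour 5 the (+)-Nutlin list held 2351 peaks and the DMSO list 1694. In tumour 6 there were 1148 peaks with (+)-Nutlin and 935 with DMSO. In tumour 7 the order turned, with 707 peaks after (+)-Nutlin and 892 after DMSO. Both lists of a tumour had peaks of the same kind, wide in tumour 5 and narrow in tumours 6 and 7, with a smallest peak of 357 and 344 bp for (+)-Nutlin and DMSO in tumour 5, 54 and 54 bp in tumour 6, and 54 and 52 bp in tumour 7. The groups thus overlapped widely, at 1402 ± 851 peaks with (+)-Nutlin and 1174 ± 451 with DMSO (SD, n = 3 each), and the tumours differed by more than the treatments. The ratio of geometric means was 1.11, with a paired 95% interval from 0.53 to 2.30 and a two-sided exact permutation p of 0.8, where 0.1 is the smallest that 3 against 3 lists allow. The direction rested on tumour 5, since the log2 ratio was 0.14 with it and -0.020 without it. That p does not show that the compound had no effect, as a change of up to 2.30-fold lies within the interval.

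The length of genome under peaks behaved in the same way. Peaks covered 1412 kb with (+)-Nutlin and 1033 kb with DMSO in tumour 5, 221 and 194 kb in tumour 6, and 158 and 176 kb in tumour 7. The log2 ratio was 0.16, with a two-sided exact permutation p of 0.7. Merging peaks within 500 bp, which joins a site that was split into several short peaks, gave 2331 (+)-Nutlin and 1686 DMSO sites in tumour 5, 807 and 646 in tumour 6, and 484 and 573 in tumour 7.

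**Figure D1:**
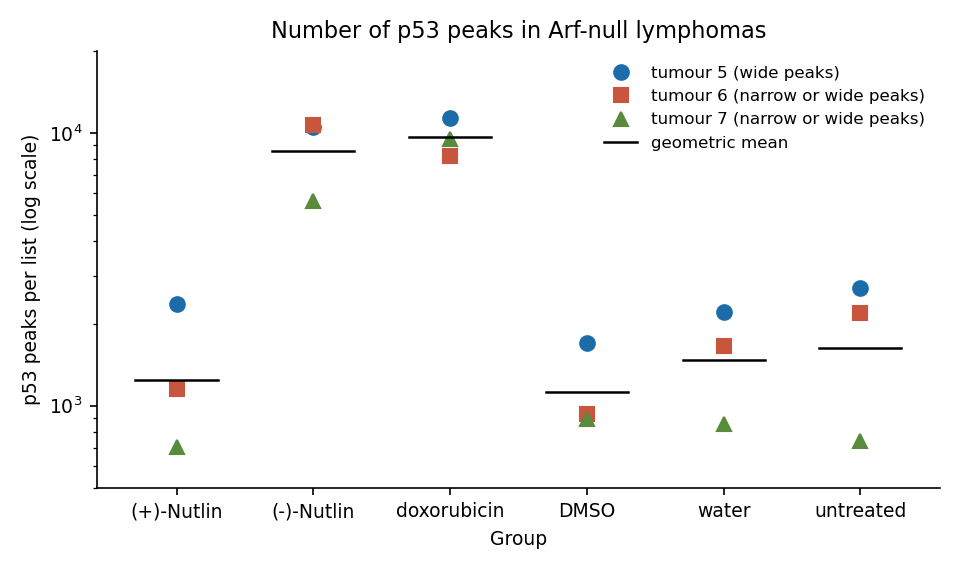
Number of p53 peaks (log axis) in each list of the Arf-null tumours by group, with 1 point per tumour and a bar at the geometric mean of the 3. The (+)-Nutlin points (707 to 2351) lie among those of DMSO, water and untreated cells (742 to 2696) except for tumour 7, whose (+)-Nutlin list is the shortest of all; those of (-)-Nutlin and doxorubicin start at 5617.

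Untreated and water lists widened the comparison from 1 control list per tumour to 3. By number of peaks, (+)-Nutlin had rank 3 from the lowest of the 4 unactivated lists in tumour 5, rank 2 in tumour 6 and rank 1 in tumour 7. Relative to the geometric mean of the other 3 lists, it held 1.09 times as many peaks in tumour 5, 0.76 times in tumour 6 and 0.85 times in tumour 7. The mean over tumours was 0.89 times, or -0.16 on the log2 scale, with an exact p of 0.609 over the 64 ways to place the (+)-Nutlin label within tumours. This test could have reached 0.0156. Set against single controls, (+)-Nutlin gave 0.85 of the peaks of water lists (paired 95% interval 0.49 to 1.46) and 0.76 of those of untreated lists (0.34 to 1.68). DMSO gave 0.77 of the water number (0.36 to 1.64) and 0.69 of the untreated number (0.19 to 2.51). The (+)-Nutlin list held fewer peaks than the untreated list in each tumour, at 0.87, 0.53 and 0.95 times in tumours 5, 6 and 7. By covered length it was 1.07 times the untreated list in tumour 7.

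The 2 enantiomers, given at the same dose for the same time, differed widely. (+)-Nutlin lists held 0.22 of the peaks of (-)-Nutlin lists in tumour 5, where 2351 stood against 10503, 0.11 in tumour 6, where 1148 stood against 10674, and 0.13 in tumour 7, where 707 stood against 5617. The ratio of geometric means was 0.145, with a paired 95% interval from 0.0555 to 0.377. Over the 3 pairs formed by (+)-Nutlin, (-)-Nutlin and DMSO, the two-sided exact permutation p was 0.1 for the enantiomers, with a Benjamini-Hochberg adjusted p of 0.15, and the same values held for (-)-Nutlin over DMSO. It was 0.8 before and after adjustment for (+)-Nutlin over DMSO. An adjusted p below 0.15 was out of reach for a pair of groups that separate completely beside another pair at 0.8. In tumours 6 and 7 the (+)-Nutlin lists consist of narrow and the (-)-Nutlin lists of wide peaks, so that the kind of list and the compound cannot be told apart there, whereas in tumour 5 both lists are wide, with medians of 490 and 432 bp.

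Region by region, (+)-Nutlin and DMSO lists shared a core, and most regions called under 1 treatment alone were in a single list. Peaks of the 6 lists merged into 2901 regions, of which 325 (11.2%) had a peak in all 6 lists and 1330 (45.8%) in 1 list alone. A peak in every (+)-Nutlin list and in no DMSO list was found for 1 region, which is 0.0345% of those examined. The opposite pattern was found for 0 regions (0%). In an exact Fisher test per region, adjusted over all regions after Benjamini and Hochberg, 0 differed (0%), and 0 had an unadjusted p under 0.05, which 3 against 3 lists cannot give. More (+)-Nutlin than DMSO lists had a peak in 1202 regions (41.4%) and fewer in 521 (18.0%) beside (+)-Nutlin lists that were the longer ones in tumours 5 and 6. Of the 1033 regions called in (+)-Nutlin lists alone, 975 were in a single list, and 831 of these in that of tumour 5. Of the 359 called in DMSO lists alone, 355 were in a single list, and 259 of these in that of tumour 5.

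**Figure D2:**
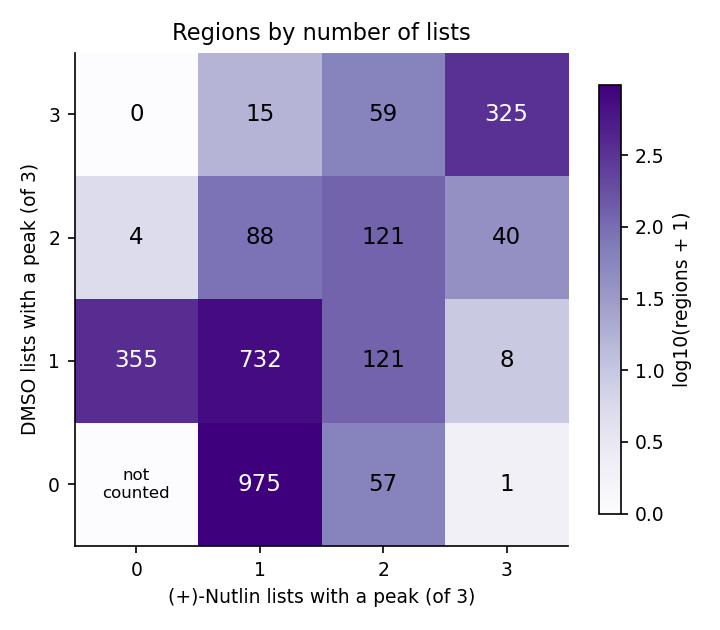
The 2901 regions by the number of (+)-Nutlin lists (horizontal, of 3) and of DMSO lists (vertical, of 3) with a peak; the colour is log10 of the count plus 1. Counts gather on the diagonal and in the single-list cells, and the corners of a consistent difference hold 1 region (lower right) and 0 regions (upper left).

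The same counts between other groups give a scale for these. Over 12660 regions of (+)-Nutlin and (-)-Nutlin lists, 1 (0.0079%) was in every (+)-Nutlin and no (-)-Nutlin list, and 2988 (23.6%) were in every (-)-Nutlin and no (+)-Nutlin list. Between (-)-Nutlin and DMSO, 3532 of 12661 regions (27.9%) were gained with (-)-Nutlin and 1 (0.0079%) was lost. Between unactivated groups such regions were few in every pair. With (+)-Nutlin, 1 region was gained (0.0304%) and 3 were lost (0.0912%) against water, and 1 was gained (0.027%) and 0 were lost (0%) against untreated cells. With DMSO, 0 were gained (0%) and 4 lost (0.138%) against water, and 1 was gained (0.0295%) and 4 were lost (0.118%) against untreated cells. Water against untreated cells gave 1 gained (0.027%) and 1 lost (0.027%). The pairs share their control lists and are not independent of each other.

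Within a tumour, each list left a part of the other uncalled. In tumour 5, 1416 regions were called in both lists, 931 with (+)-Nutlin alone and 277 with DMSO alone. In tumour 6 the counts were 491, 324 and 157, and in tumour 7 they were 396, 90 and 182. The longer list of each tumour thus had more regions of its own. In the narrow-peak tumours, many regions called under 1 treatment alone were called under the other treatment in another tumour, whether or not both lists of that tumour held them. Of the 90 regions called with (+)-Nutlin alone in tumour 7, 71.1% were called in a DMSO list of another tumour, and of the 182 called with DMSO alone there, 78.6% were called in a (+)-Nutlin list of another tumour. In tumour 6 the shares were 45.4% and 61.1%. In tumour 5, whose wide list is the longest, they were 4.51% and 5.05%. For tumours 6 and 7 the other tumours include the long lists of tumour 5. The same share over all regions of a tumour is not given here, so these values show nothing particular to regions called under 1 treatment. With 1 list of each group allowed to differ, 187 of the 2901 regions (6.45%) counted as gained and 107 (3.69%) as lost. The rule of every list against no list was also used in each remaining pair of tumours. Without tumour 5, 15 of 1590 regions were gained and 26 lost. Without tumour 6, 17 of 2703 were gained and 3 lost, and without tumour 7, 48 of 2848 were gained and 2 lost. With 2 lists per group the rule is easier to meet than with 3, so these counts are not on the scale of the main ones.

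The region gained in all 3 tumours was singled out by that pattern and spanned 87171548 to 87171954 of chromosome 7 (positions are in mm9 throughout). Its peaks were 396, 61 and 54 bp wide in the (+)-Nutlin lists of tumours 5, 6 and 7. The peak of tumour 6 ran from 87171548 to 87171608 and that of tumour 7 from 87171844 to 87171897. They do not touch each other and were joined into a region only by the wide peak of tumour 5, from 87171559 to 87171954. In tumour 7 the DMSO list had a 94 bp peak from 87171957 to 87172050, which starts 2 bases beyond the region, and the water list had a 56 bp peak from 87171959 to 87172014. Joining regions over gaps of 200 bp, or reducing peaks to 200 bp around the midpoint, left 0 gained regions. The region was also called in all 3 (-)-Nutlin lists, with peaks of 280, 470 and 466 bp in tumours 5, 6 and 7, and in the doxorubicin list of tumour 7. In no list of untreated, water or DMSO cells did a peak overlap it, nor in any list of a KI tumour.

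Against all 9 other unactivated lists, a test per region could reach lower p-values before adjustment. It counted the 9 lists as separate, although they came from the same 3 tumours as the (+)-Nutlin lists, and it ignored the pairing by tumour. Of 4204 regions over the 12 lists, 0 were called more often (0%) and 0 less often (0%) with (+)-Nutlin at an adjusted p under 0.05 in the exact Fisher test, and the smallest adjusted p was 1. In this Fisher test 3 against 9 lists cannot give an unadjusted p below 0.00455. Over 4204 regions, an adjusted p under 0.05 would need a great many regions at that floor at once. The adjusted test therefore could hardly have called a region, and no conclusion is drawn from the 0. Without adjustment, 7 regions (0.167%) were called more often and 3 (0.0714%) less often at p under 0.05. The lowest unadjusted p, 0.00455 in this exact test, belonged to the region on chromosome 7 described above. That region had been picked for its absence from the DMSO lists, which are among the 9, so this p is no separate support. The 3 called less often had a peak in all 9 other lists and in 1 of 3 (+)-Nutlin lists. Named after their values were seen, they spanned 21579725 to 21580778 of chromosome 13, 152617853 to 152618866 of chromosome 2, and 144362867 to 144363770 of chromosome 5. All 12 lists had a peak in 292 regions. Of the 377 regions called in (+)-Nutlin lists and in no other of the 12, 370 were in a single list.

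Among the regions called in all 6 lists, the 5 of highest mean width percentile are given in full. Their presence under both treatments is part of that choice, and what they show is the width under each. The first lay on chromosome 1 from 156902146 to 156904669. Its widest peak was 2462, 1763 and 1980 bp with (+)-Nutlin and 2401, 1867 and 1838 bp with DMSO in tumours 5, 6 and 7. The region was called in all 26 lists. The second lay on chromosome 7 from 16893144 to 16895510, with 2213, 1760 and 1501 bp for (+)-Nutlin and 2293, 1371 and 1634 bp for DMSO, and was likewise called in all 26 lists. In both regions the values of the groups overlapped and neither treatment was wider in every tumour. Further along chromosome 7, from 71471358 to 71473975, the peaks were 2618, 1300 and 1053 bp with (+)-Nutlin and 2283, 1248 and 1412 bp with DMSO. On chromosome 3 from 32261823 to 32264916 they were 2972, 1325 and 942 bp with (+)-Nutlin and 3084, 1446 and 952 bp with DMSO. In this region the DMSO peak was the wider one in all 3 tumours. The region was called in all 18 Arf lists and all 4 OHT lists, and in none of the 4 EtOH lists. The last of the 5, on chromosome 1 from 134161523 to 134163733, had peaks of 2054, 1227 and 1099 bp with (+)-Nutlin and 2127, 1138 and 1091 bp with DMSO. There, and in the third region, the wider peak was under (+)-Nutlin in some tumours and under DMSO in the others.

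The 325 regions called in all 6 lists held most of the short lists. In tumour 7 they took 530 of the 707 (+)-Nutlin peaks and 597 of the 892 DMSO peaks. In tumour 6 they took 50.6% of (+)-Nutlin peaks and 59.6% of DMSO peaks, and in tumour 5 13.9% and 19.2%. Their widest peak had a median of 1011 bp with (+)-Nutlin and 942 bp with DMSO in tumour 5, 284 and 279 bp in tumour 6, and 252 and 270 bp in tumour 7. Of all 2901 regions, 83.5% were in every (-)-Nutlin list and 77.6% in every doxorubicin list. Water lists all held 15.0% and untreated lists 13.7%. Nearly all of the 325 were also called after activation, 322 in every (-)-Nutlin list and 323 in every doxorubicin list. Water lists all held 312 of them and untreated lists 298. The 3 that were missing from a (-)-Nutlin list, named after their values were seen, were on chromosome 19 from 32834192 to 32834879, in 2 of 3 (-)-Nutlin lists, and on chromosome 2 from 98506300 to 98507328, in 1 of 3, and from 98502226 to 98503234, in 0 of 3. Both regions on chromosome 2 were also called in 3 of 4 EtOH lists and in 0 of 4 OHT lists, and doxorubicin lists held them in 1 of 3 and 0 of 3. Their highest widths with (+)-Nutlin were 740 and 1009 bp, in tumour 5, against 1029 and 692 bp with DMSO there. Inputs were not analysed, so whether peaks at these regions mark p53 binding was not tested.

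Regions that recurred in (+)-Nutlin lists without DMSO were few. There were 58 called in 2 or 3 (+)-Nutlin lists and in no DMSO list, and 4 of the reverse kind. Of the 58, 46 were in the lists of tumours 5 and 6, 11 in those of tumours 5 and 7, and 1 in all 3. Tumours 5 and 6 are those whose (+)-Nutlin list was longer than the DMSO list. All 58 were called in at least 1 (-)-Nutlin list and 54 in all 3, while 40 were also called in a water list (69.0%) and 47 in an untreated list (81.0%). Among all 2901 regions, 2799 (96.5%) were called in at least 1 (-)-Nutlin list and 2422 (83.5%) in all 3, against 93.1% of the 58. A water list held 1980 (68.3%) of all regions and an untreated list 2173 (74.9%). Every water list held 2 of the 58 (3.45%) and every untreated list 3 (5.17%), against 15.0% and 13.7% of all regions. The first by width percentile lay on chromosome 9 from 20756818 to 20757478, with (+)-Nutlin peaks of 661 bp in tumour 5 and 79 bp in tumour 6. It was called in water and untreated cells of tumour 5 as well, with peaks of 690 and 548 bp. On chromosome 5, from 82062782 to 82063372, peaks of 591 and 86 bp in the same tumours stood beside peaks in all 3 water and all 3 untreated lists. Regions on chromosome 3 from 32635522 to 32636012 and chromosome 11 from 86570873 to 86571531 were called in 1 water and 1 untreated list each. The region on chromosome 8 from 124967253 to 124967717, with (+)-Nutlin peaks of 465 and 126 bp in tumours 5 and 6, was called in 0 water lists and 1 untreated list. All 5 were called in every (-)-Nutlin and every doxorubicin list, as were 83.5% and 77.6% of all 2901 regions. Since the pattern was used to choose these regions, it supports nothing by itself.

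The 4 regions of the reverse kind were each in 2 DMSO lists. On chromosome 9 from 7763786 to 7764179 the DMSO peaks were 394 bp in tumour 5 and 104 bp in tumour 7. On chromosome 19 from 8831323 to 8831698 they were 376 bp in tumour 5 and 67 bp in tumour 6. On chromosome 2 from 25188019 to 25188410 they were 392 and 54 bp in the same tumours, and on chromosome 1 from 122017603 to 122017946 they were 344 bp in tumour 5 and 52 bp in tumour 7. Both peaks of this last region had the smallest width found in their lists, as did the 54 bp peak of tumour 6 on chromosome 2. All 4 regions were called in every (-)-Nutlin and every doxorubicin list, and 3 of them in a water list. Of all 2901 regions, 83.5% were in every (-)-Nutlin list, 77.6% in every doxorubicin list and 68.3% in a water list.

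(+)-Nutlin and DMSO lists overlapped about as far as control lists did among themselves. The Jaccard index, the shared part of all base pairs covered by either list, was 0.554 between (+)-Nutlin and DMSO in tumour 5, 0.591 in tumour 6 and 0.618 in tumour 7. Water and untreated lists of the same tumours gave 0.582, 0.560 and 0.611. Of the 6 pairs that the 4 unactivated lists of a tumour form, (+)-Nutlin with DMSO had rank 5 from the highest in tumour 5, rank 1 in tumour 6 and rank 3 in tumour 7. With the other 3 lists of tumours 5, 6 and 7, (+)-Nutlin reached mean indices of 0.572, 0.512 and 0.622, against 0.570, 0.490 and 0.608 among those others. The mean difference was 0.013, with a two-sided exact p of 0.438 over the 64 placements of the label. Between tumours, (+)-Nutlin lists had indices of 0.145 and 0.109 for tumour 5 with tumours 6 and 7, where the peak kinds differ as well. For tumours 6 and 7 the index was 0.502, within the range of pairs inside tumour 6.

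**Figure D3:**
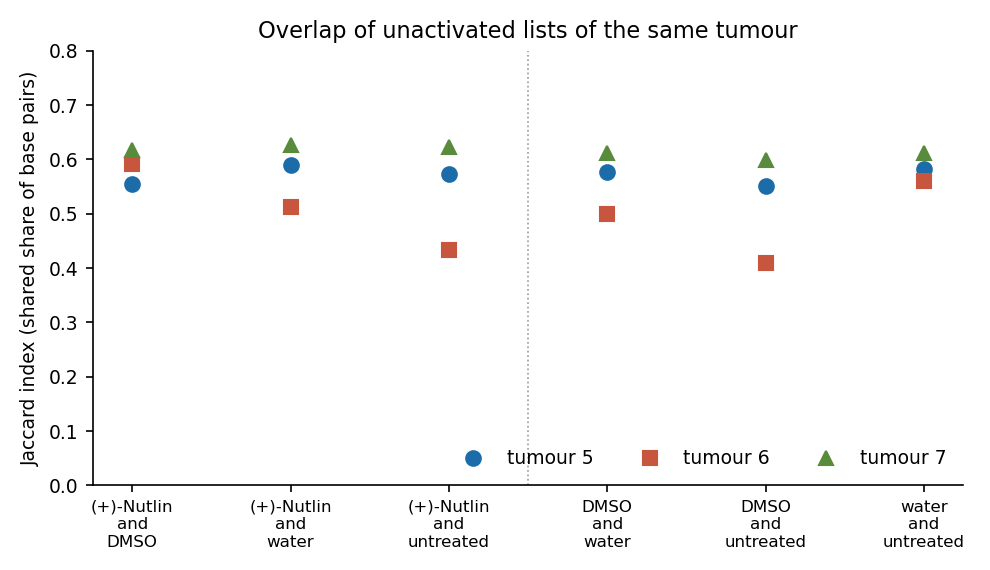
Jaccard index of each pair of unactivated lists within a tumour, with pairs that include (+)-Nutlin left of the dotted line and pairs of controls right of it; 1 point per tumour. Pairs with (+)-Nutlin run from 0.433 to 0.627 and pairs of controls from 0.410 to 0.612, with both low values in tumour 6.

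Whether a peak was called under both treatments followed its width. An overlap of 1 bp counts, so a wider peak can meet another more easily, and how much of the rise this makes was not tested. Among the widest quartile of (+)-Nutlin peaks, 98.8%, 96.9% and 99.4% had a DMSO peak in tumours 5, 6 and 7. Among the widest quartile of DMSO peaks, 99.5%, 99.6% and 99.1% had a (+)-Nutlin peak. In the narrowest quartile the shares of (+)-Nutlin peaks under a DMSO peak were 23.0%, 29.6% and 52.0%, and those of DMSO peaks under a (+)-Nutlin peak 55.9%, 40.6% and 38.6%. The list with more peaks had the lower share in the narrowest quartile in all 3 tumours. Peaks of the (+)-Nutlin list without a DMSO peak had a median width of 399, 71 and 69 bp in tumours 5, 6 and 7, and DMSO peaks without a (+)-Nutlin peak 372, 65 and 73 bp. Those that were shared had medians of 627, 156 and 149 bp in (+)-Nutlin lists and 558, 142 and 149 bp in DMSO lists. In the narrow-peak tumours many unshared peaks had a peak of the other list nearby, since 30.0% and 41.0% of those of (+)-Nutlin lay within 500 bp of a DMSO peak in tumours 6 and 7, and 37.4% and 36.7% of those of DMSO within 500 bp of a (+)-Nutlin peak. In tumour 5 these shares were 0.75% and 1.08%.

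**Figure D4:**
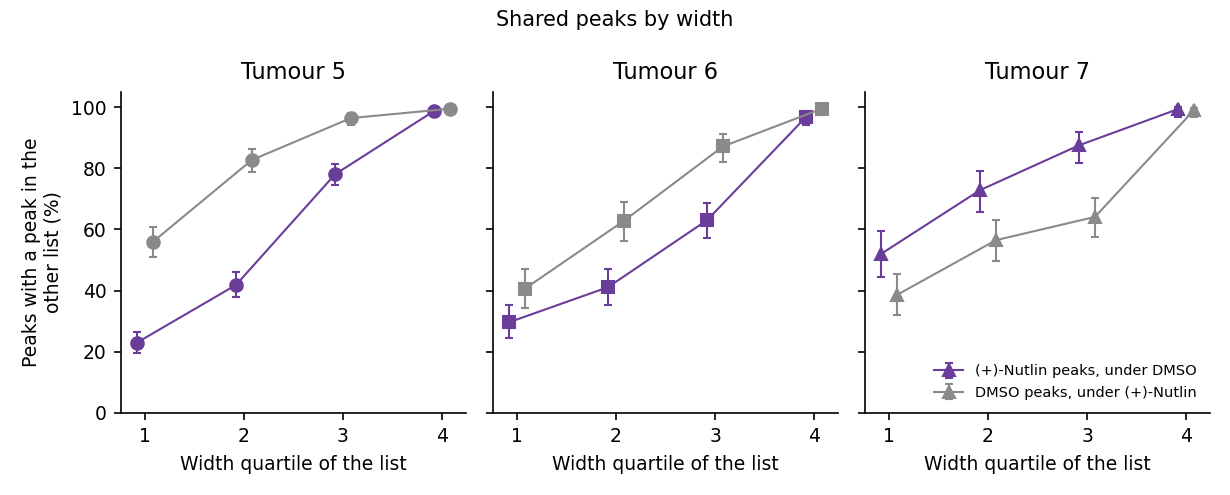
Percent of peaks with a peak in the other list of the tumour, by width quartile of the list (1 narrowest, 4 widest), for (+)-Nutlin peaks (purple) and DMSO peaks (grey); bars are exact 95% binomial intervals, which cover counting error only. Both curves climb to between 96.9% and 99.6% in the widest quartile, and the lower curve belongs to (+)-Nutlin in tumours 5 and 6 and to DMSO in tumour 7.

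Most unshared peaks of either list lay under peaks of the activated lists, as nearly all peaks did. Over all peaks, 97.9%, 97.0% and 96.0% of those with (+)-Nutlin and 97.6%, 98.5% and 95.3% of those with DMSO lay under a (-)-Nutlin peak in tumours 5, 6 and 7. Of the 931 unshared (+)-Nutlin peaks of tumour 5, 96.7% lay under a (-)-Nutlin peak of that tumour, against 91.3% of the 277 unshared DMSO peaks. In tumour 6 the shares were 94.7% of 486 with (+)-Nutlin and 98.1% of 257 with DMSO, and in tumour 7 92.3% of 156 and 91.5% of 316. The means were 94.5 ± 2.2% and 93.6 ± 3.8% (SD, n = 3 each), with a two-sided exact permutation p of 0.8. The difference of 0.93 percentage points turned to -1.28 without tumour 5. Under a doxorubicin peak lay 92.8 ± 6.0% of the unshared (+)-Nutlin peaks and 91.5 ± 2.9% of the unshared DMSO peaks (SD, n = 3 each; exact permutation p = 0.8). Untreated lists held 43.5 ± 19.9% of the unshared (+)-Nutlin and 46.2 ± 19.3% of the unshared DMSO peaks (SD, n = 3 each; exact permutation p = 0.7). In tumours 5, 6 and 7 these shares were 50.4%, 59.1% and 21.2% with (+)-Nutlin and 50.9%, 62.6% and 25% with DMSO. The (+)-Nutlin share was thus the lower one in all 3 tumours. The permutation ignored the pairing by tumour, and the paired difference under untreated peaks was not tested. Just 15, 17 and 5 unshared (+)-Nutlin peaks in tumours 5, 6 and 7 were in no other list of their tumour, and 6, 1 and 7 unshared DMSO peaks.

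**Figure D5:**
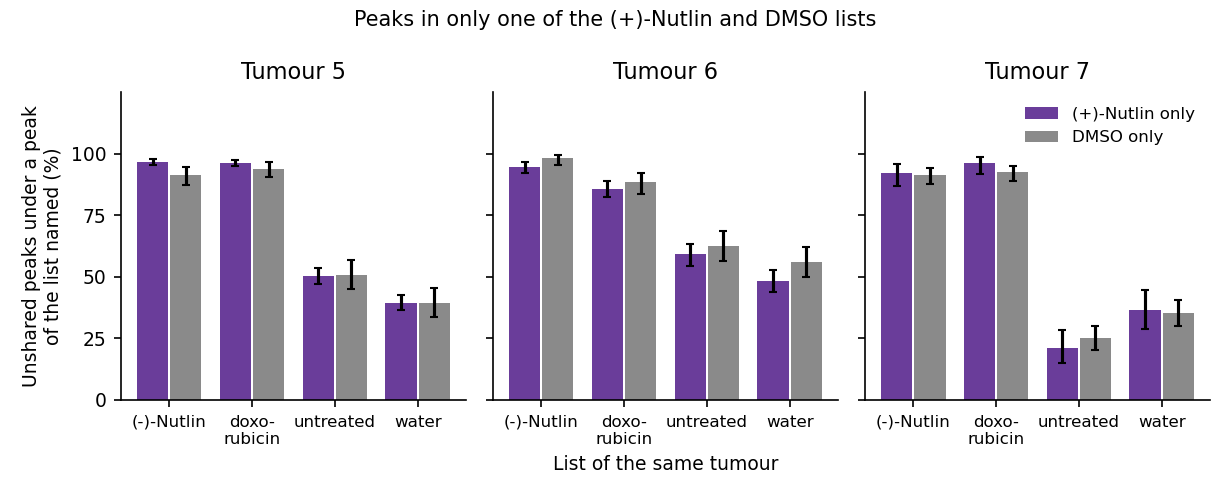
Percent of peaks found with (+)-Nutlin only (purple) or with DMSO only (grey) that lie under a peak of another list of the same tumour, with exact 95% binomial intervals that cover counting error only. Paired bars are close, between 85.8% and 98.1% for (-)-Nutlin and doxorubicin and between 21.2% and 62.6% for untreated and water lists.

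Seen from the active enantiomer, the longer list of each tumour reached more of its sites. Of the (-)-Nutlin peaks, 21.9% lay over a (+)-Nutlin peak and 15.8% over a DMSO peak in tumour 5. In tumour 6 the shares were 7.33% and 5.95%, and in tumour 7 8.21% and 9.58%. The mean was 12.5 ± 8.2% for (+)-Nutlin and 10.4 ± 5.0% for DMSO (SD, n = 3 each), with a two-sided exact permutation p of 0.7. With both lists of a tumour held to the length of the shorter by taking its widest peaks, the shares were 15.9% and 15.8%, 6.08% and 5.95%, and 8.21% and 8.19%. Because nearly all peaks of either list lay under a (-)-Nutlin peak, lists of equal length must reach nearly equal shares, and the small difference of 0.11 percentage points at equal length, against 2.06 for the full lists, says little beyond that. The (-)-Nutlin peaks with a (+)-Nutlin peak were wide, with medians of 672, 763 and 1005 bp in tumours 5, 6 and 7, and those without one had 397, 406 and 513 bp. For DMSO these medians were 748, 846 and 985 bp with and 406, 408 and 512 bp without a peak. Here too a wider peak can meet another more easily.

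At sites called once in each list, peak width changed by little and not in 1 direction. The median log2 ratio of width, (+)-Nutlin over DMSO, was 0.14 over 1411 sites in tumour 5, 0.0057 over 532 in tumour 6 and -0.032 over 453 in tumour 7. In tumour 5, 72.9% of sites were wider with (+)-Nutlin and 26.7% narrower. In tumour 6 these shares were 50.2% and 48.9%, and in tumour 7 43.9% and 54.1%. The mean of the medians was 0.039 ± 0.092 (SD, n = 3), with an exact p of 0.75 by changes of sign, where 0.25 is the smallest possible, and it was -0.013 without tumour 5. Controls shifted as far among themselves, with medians of 0.14, -0.10 and 0.075 for water over untreated and -0.18, -0.28 and 0.00 for DMSO over water in tumours 5, 6 and 7. The midpoints of the paired (+)-Nutlin and DMSO peaks lay a median of 37, 14.8 and 17 bp apart.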

How the data were processed

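The authors deposited 1 peak list per p53 ChIP library (antibody CM5p), giving chromosome, start and end in base pairs with no score. Per the submitters' processing notes, BWA 0.6.2, SAMtools and build mm9 were used. Which program called the peaks, and how strictly, is not given in the sources used here. Inputs were not analysed here. The annotation and sequences at hand were of build GRCm38, so regions carry no gene names, the p53 target genes listed beforehand were not looked up, and no sequence is printed.

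Peaks sharing at least 1 bp were merged into regions. Intervals of ratios come from the paired log2 differences of the 3 tumours and assume normality. Named regions were those gained or lost, the 5 widest in all 6 lists, and up to 5 each in at least 2 lists of 1 group and none of the other, ranked by mean width percentile. Members, regions and tests were chosen with earlier results of these data known.

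Tumour numbers pair the lists. (+)-Nutlin and DMSO lists of the same tumour had Jaccard indices of 0.554 to 0.618, and those of different tumours 0.120 to 0.548. Tumour 5 also differs in peak width. Analyses used Python 3.11.15, NumPy 2.4.6 and SciPy 1.17.1, with functions tested on simulated lists. The alternatives were another overlap rule, list length, width threshold, the tumour as a block and leaving out each tumour.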

Additional observations from a re-analysis of the deposited data

How the results depend on the processing

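Of 59 alternatives to 10 results, 42 were labelled the same, 12 moved and 5 reversed direction. Counts of gained and lost regions carry no p, so no threshold was involved for them. In the tests, p under 0.05 was in reach only with all 64 placements of the (+)-Nutlin label. For the other tests the side of the threshold was fixed by the number of lists, and only the direction could change. Leaving out each tumour moved the log2 ratio of peak numbers, (+)-Nutlin over DMSO, between -0.020 and 0.38, the log2 width ratio at shared peaks between -0.013 and 0.074, and the difference in unshared peaks under (-)-Nutlin between -1.28 and 3.09 percentage points. By median width of each list, with no replicate block, the width ratio was -0.014. The difference in overlap was -0.0019 when shares of peaks replaced the Jaccard index. Gained regions numbered 0 with peaks of 200 bp around the midpoint, with gaps of 200 bp joined, with lists of equal length or with peaks at or above the median width, and 187 with 1 list of each group allowed to differ, where lost regions numbered 107. Gained regions ranged from 15 to 48 with a tumour left out, and lost regions from 2 to 26. Those runs covered 1590 to 2848 regions, and a rule over fewer lists is easier to meet. With the tumour as replicate block, the exact p was 0.75 for the ratio of peak numbers to DMSO. It was 0.25 for the ratio to (-)-Nutlin and 0.5 for covered base pairs. The smallest p possible is 0.25 with this block and 0.1 without it. A call at 0.05 was therefore out of reach either way, and these values say nothing about stability of calls. Alternatives for the share of (-)-Nutlin peaks reached were chosen after seeing the data. Target genes could not be tried at another distance. Unknown depth limits all comparisons of list length.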

Other observations

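Regions that recurred with (+)-Nutlin alone were set beside the lists of ethanol-treated KI tumours. Of the 58 regions in 2 or 3 (+)-Nutlin lists and no DMSO list, 31 (53.4%) had a peak in at least 1 of the 4 EtOH lists, and of the 46 among them in tumours 5 and 6 only, 26 (56.5%) did. Of the 325 regions called in all 6 lists 59 (18.2%) did, of the 975 in a single (+)-Nutlin list 154 (15.8%), and of all 2901 regions 502 (17.3%). Of the 121 regions in 2 (+)-Nutlin lists and 1 DMSO list 40 (33.1%) did, and of the 88 in 1 (+)-Nutlin and 2 DMSO lists 22 did. Presence in all 4 EtOH lists was rare, with 10 of the 325 (3.08%) and 11 of all 2901 regions (0.379%). It was found for 0 of the 58, which is near the share of all regions. Of the 4 regions in 2 DMSO lists and no (+)-Nutlin list, 3 had a peak in at least 1 EtOH list. These shares were set side by side after the values were seen and carry no test.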
